A study of Mus musculus with 6 samples.

Results

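The microglia and macrophage markers described here are genes of the brain's resident phagocytes, read in RNA of mouse astrocytes. They were taken by name, as every probe set whose symbol in the platform annotation, current or former, was one of 38 listed names. The names were listed with earlier results of these data known. The name Emr1 is a former symbol of Adgre1, so the names stand for 37 genes, of 18193 named genes on the array, and those genes have 57 probe sets of the 45037 analysed. RNA of astrocytes, the glia that surround and support neurons, was hybridised to 6 single-colour arrays, 3 of neocortical and 3 of cerebellar astrocytes of the mouse. The labels name the ICR strain for the neocortical arrays only and give no age, treatment, culture or sorting step, so a difference of strain, if there was one, cannot be told apart from one of region. The labels do not say whether replicate arrays stand for different animals or cultures, and p-values here measure the spread between these arrays, which may be partly technical.

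Microglia arise from yolk sac myeloid precursors and depend on signalling through the receptor encoded by Csf1r and on the transcription factor PU.1, encoded by Spi1. In the brain they sense purines and the neuronal chemokine fractalkine, take up debris and synapses through complement, Fc and TREM2 receptors, and share most of their genes with the macrophages of the meninges and vessel walls. Microglia are common companions of astrocytes in glial preparations.

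Signal is given in arbitrary units after quantile normalization of the 6 arrays, and levels of different probe sets are not set against each other. Each gene is represented by its brightest probe set. Differences are cerebellar minus neocortical on the log2 scale, with values under the floor of 62.2 raised to it, and a call means an adjusted p under 0.05 in limma's moderated test over all 27022 probe sets that passed a filter on dim signal. The 24 bacterial control probe sets, which stand for the dim range, read from 2.9 to 269.2 as deposited. Their median was 17.1 and their 95th percentile 116.2, so a value within their range can still lie above most of them.

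The markers varied several-fold between arrays of the same region, and their values overlapped between the regions for 34 of the 36 genes tested. Of the 37 genes, 36 passed the filter on dim signal and Hcls1 did not, and 1 of the 36, Apobec1, was called, with lower signal in cerebellar astrocytes. No tested marker was called higher. Over the 12616 genes tested, 12.7% were called, 5.3% higher and 7.36% lower in cerebellar astrocytes, and over single probe sets 4.88% were higher and 5.72% lower. The median log2 difference of the 36 markers was -0.09, beside -0.01 over all genes tested, and 13 markers had a positive and 23 a negative difference. Within regions, cerebellar array 2 read a median of 4.23 times cerebellar array 1 over the markers, where the same median over all genes was 0.997. Neocortical array 2 read 2.34 times neocortical array 3, where the median over all genes was 1.01.

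**Figure D1:**
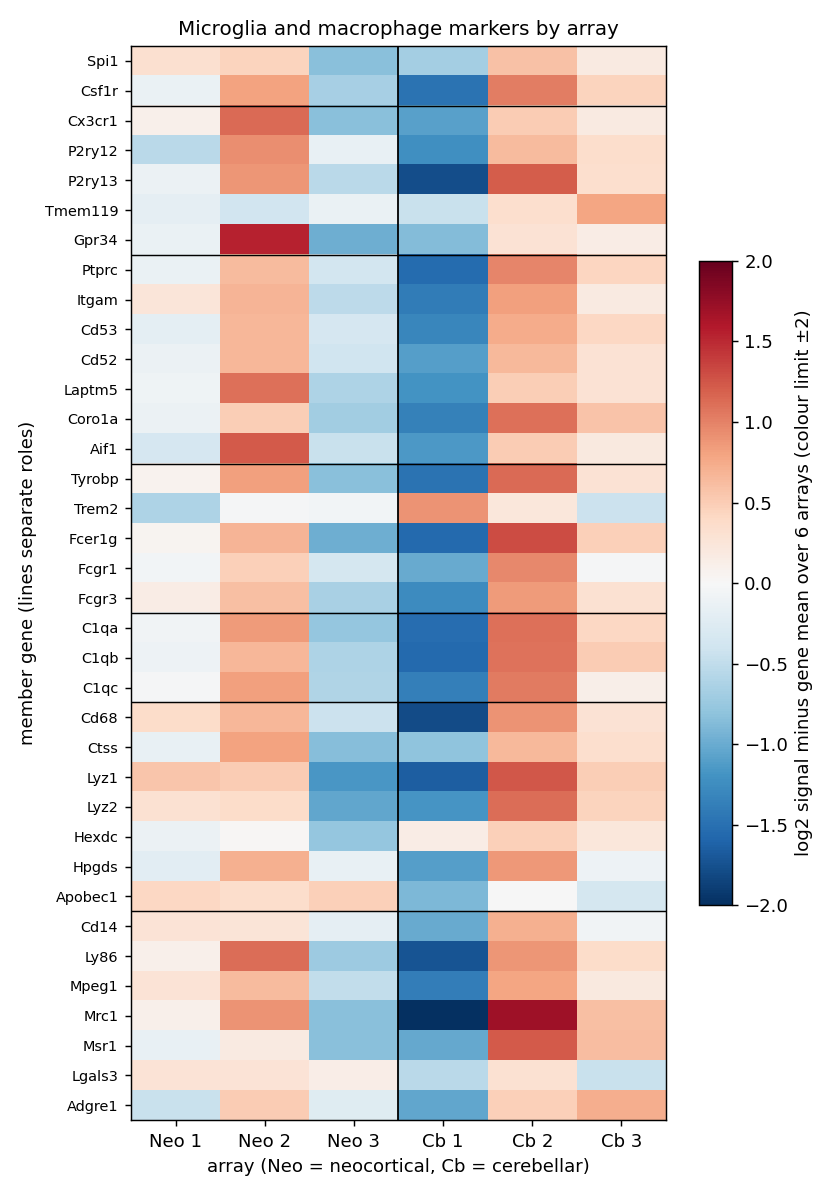
Heat map of the 36 tested marker genes (rows, grouped by role) on the 6 arrays (columns). The colour gives log2 signal minus the gene's mean over the 6 arrays, and most rows are lowest on cerebellar array 1 and highest on cerebellar array 2.

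Promoters are shown because many of the markers are known targets of PU.1, which binds a purine-rich element around the letters GAGGAA. Of the 37 genes, 27 matched the RefSeq promoter table (GRCm38.p6). GAGGAA stood on either strand of the 250 bases before a start site in 15 of these 27 genes, a share of 55.6%, beside 25.9% of the 27025 genes with a promoter in that table. The longer form GAGGAAGT, which contains GAGGAA, stood in 2 of the 27, C1qc and Hpgds, beside 2.79% of all genes. The 5 promoters printed here were picked because they hold the motif, from markers that rose from cerebellar array 1 to array 2 and from neocortical array 3 to array 2. Markers that rose in the same way without the motif in this window include Fcer1g, Ly86, Coro1a, Mpeg1, Lyz2, Cx3cr1 and P2ry12. Trem2 holds 1 copy and did not rise from cerebellar array 1 to array 2. Only bases outside the gene's RefSeq span are shown. They run 5′ to 3′ on the gene's strand, and capitals mark GAGGAA or its reverse complement TTCCTC. Ctss is at chr3:95526536-95526785 (+ strand), Cd53 at chr3:106790150-106790399 (- strand), C1qc at chr4:136892937-136893164 (- strand), Itgam at chr7:128062390-128062639 (+ strand) and Mrc1 at chr2:14229164-14229413 (+ strand).
Ctss: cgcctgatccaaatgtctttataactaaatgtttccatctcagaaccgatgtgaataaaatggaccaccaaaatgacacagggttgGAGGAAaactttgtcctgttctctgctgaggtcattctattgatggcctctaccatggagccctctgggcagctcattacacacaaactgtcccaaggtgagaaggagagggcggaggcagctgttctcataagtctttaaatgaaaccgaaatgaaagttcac
Cd53: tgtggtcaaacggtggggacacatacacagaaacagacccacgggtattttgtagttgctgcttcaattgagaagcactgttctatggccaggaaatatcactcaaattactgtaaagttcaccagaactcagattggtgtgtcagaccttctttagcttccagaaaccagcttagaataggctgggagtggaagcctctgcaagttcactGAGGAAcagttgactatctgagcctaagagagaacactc
C1qc: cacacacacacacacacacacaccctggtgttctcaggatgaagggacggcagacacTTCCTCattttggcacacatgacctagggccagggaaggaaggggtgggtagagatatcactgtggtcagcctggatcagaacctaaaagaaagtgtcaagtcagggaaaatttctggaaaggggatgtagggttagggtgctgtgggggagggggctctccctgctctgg
Itgam: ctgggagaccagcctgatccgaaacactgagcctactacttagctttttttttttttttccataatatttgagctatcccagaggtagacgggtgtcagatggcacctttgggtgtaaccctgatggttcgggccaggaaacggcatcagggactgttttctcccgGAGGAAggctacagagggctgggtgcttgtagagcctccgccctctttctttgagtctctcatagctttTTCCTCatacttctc
Mrc1: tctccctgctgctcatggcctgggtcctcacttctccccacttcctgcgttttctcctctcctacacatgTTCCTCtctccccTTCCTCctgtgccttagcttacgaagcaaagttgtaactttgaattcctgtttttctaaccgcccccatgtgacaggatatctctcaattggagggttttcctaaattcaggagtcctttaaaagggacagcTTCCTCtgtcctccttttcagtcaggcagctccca
Within these windows Mrc1 holds 3 copies, Itgam 2, and Ctss, Cd53 and C1qc 1 each. The copy in C1qc is part of the longer form, read on the other strand. These matches describe letters in a window, and binding was not measured. The part of PU.1 in the marker pattern was not tested.

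Within the cerebellar group, array 2 was above array 3 and array 3 above array 1 for 33 of the 36 tested markers, beside 16.9% of all genes tested. Cerebellar array 2 held the highest value for 25 of the 37 genes and neocortical array 2 for 8, so an array numbered 2 was highest for 33. Cerebellar array 1 was lowest for 32 genes and neocortical array 3 for 4. Over all genes tested, cerebellar array 1 was lowest for 18.1% and cerebellar array 2 highest for 16.2%. Averaged over the 36 tested markers, the log2 level relative to each gene's mean was -0.01, 0.64 and -0.54 on neocortical arrays 1 to 3, and -1.16, 0.80 and 0.27 on cerebellar arrays 1 to 3. The cerebellar levels thus enclosed the neocortical ones on both sides, and the cerebellar mean of -0.03 ± 1.02 and the neocortical mean of 0.03 ± 0.59 (SD, n = 3 each) differed by far less than either spread. In bulk RNA of this kind, the number of phagocytes, their RNA per cell and RNA of other cells cannot be told apart. The part of each was not tested.

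A step of at least 2-fold from cerebellar array 1 to array 2 together with a step of at least 1.5-fold from neocortical array 3 to array 2 was found for 30 of the 36 markers, or 83.3%, beside 1.87% of all genes tested. Both steps were picked after the values had been seen, so the shares are a description. For 8 markers, P2ry12, P2ry13, Gpr34, Ptprc, Itgam, Aif1, Hpgds and Mrc1, the value on cerebellar array 1 lay within the range of the bacterial controls, so the size of their step from that array is uncertain. The same holds for the step from neocortical array 3 of Spi1, P2ry13, Gpr34, Itgam and Hpgds, whose values there lay within that range. The 6 markers without both steps were Tmem119, Trem2, Hexdc, Apobec1, Cd14 and Lgals3. By correlation of each marker with the mean of the other markers, over 6 arrays that share one normalization, 29 of 36 had r above 0.9. The lowest markers were Trem2 at -0.50, Hexdc at 0.43, Apobec1 at 0.43, Tmem119 at 0.46 and Lgals3 at 0.58. Beside them, 2184 other tested genes had an SD of at least 0.5 on the log2 scale. Of these, 88 had r above 0.9 with the mean level of the markers.

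Both lineage genes were highest on the arrays numbered 2. Csf1r, the receptor for colony stimulating factor 1, read 5877, 11269.9 and 4087 on neocortical arrays 1 to 3 and 2334, 13151 and 8852 on cerebellar arrays 1 to 3. The groups overlapped throughout, since the cerebellar arrays held both the lowest and the highest value. Its log2 difference was 0.00 ± 0.58 (SE, limma adjusted p = 0.999), and the 95% interval ran from 2.5-fold lower to 2.5-fold higher in cerebellar astrocytes. Spi1, the PU.1 gene, read 573, 622 and 257 against 286, 689 and 519. Here neocortical array 3 and cerebellar array 1 were the low arrays of their regions, and the difference was 0.05 ± 0.42 (adjusted p = 0.956). The value on neocortical array 3 lay within the range of the bacterial controls.

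Of the 5 microglial surface receptors, none was called. Cx3cr1, the fractalkine receptor, read 1107, 2252 and 576 in neocortical and 486, 1460.4 and 1159 in cerebellar astrocytes. Neocortical array 2 was the brightest of all and neocortical array 3 was close to cerebellar array 1, so the groups overlapped (difference -0.27 ± 0.52, adjusted p = 0.791). P2ry12, the ADP receptor that guides microglial processes, read 281, 779 and 371 against 174, 635 and 523, again lowest on cerebellar array 1. P2ry13, a purine receptor whose gene neighbours P2ry12 on chromosome 3, read 278, 557 and 208 against 89.0, 701 and 384. Its value on cerebellar array 1 lay inside the range of the bacterial controls and that on array 2 above it. Gpr34, a lysophosphatidylserine receptor, read 157, 499 and 87.5 against 94.8, 210.0 and 190.4, mostly inside that range, and was highest on neocortical array 2. Tmem119, a membrane protein widely used to mark microglia, did not share the pattern. It read 421, 366 and 434 against 349.9, 604 and 827, with little spread among neocortical arrays and its highest value on cerebellar array 3 (difference 0.46 ± 0.31, adjusted p = 0.394).

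Genes of the leukocyte surface and cytoskeleton moved as a block, with 7 of 8 tested and all 7 showing both steps. Ptprc, the CD45 phosphatase of all white blood cells, read 565, 953 and 478 in neocortical and 211, 1214 and 826 in cerebellar astrocytes. The cerebellar arrays held both extremes. Itgam, the CD11b integrin chain, read 254, 345 and 149.6 against 81.9, 379 and 243, with cerebellar array 1 lowest. Cd53, a tetraspanin, read 1405, 2546 and 1268 against 651, 2697 and 2146, and Cd52, a small surface glycoprotein, read 808, 1389 and 664 against 407, 1371 and 1074. In both, cerebellar array 1 was below every neocortical array while cerebellar arrays 2 and 3 lay within or near the neocortical range. Aif1, the actin-bundling protein IBA1 used to stain microglia, read 349, 1033 and 323 against 198, 622 and 503, highest on neocortical array 2. Coro1a, an actin regulator of leukocytes, read 1301, 1984 and 869.6 against 555, 3046 and 2102. Laptm5, a lysosomal membrane protein, read 1597, 3613 and 1106 against 741, 2384 and 2056 on its brightest probe set. None of the other tested Laptm5 probe sets showed both steps. The log2 differences of these 7 ran from -0.30 for Aif1 to 0.22 for Coro1a, all with adjusted p from 0.77 to 0.941. Hcls1, a cortactin-like adaptor, was below the filter, with values of 18.2, 122 and 11.3 and 7.68, 239 and 129 of which 3 were under the floor.

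The activating receptors signal through the adaptors Tyrobp (DAP12) and Fcer1g, which pass phagocytic cues to the kinase SYK. Tyrobp read 2659, 4492 and 1421 in neocortical and 916, 5594 and 3124 in cerebellar astrocytes. That is a 6.11-fold span within the cerebellar group against a regional difference of -0.03 ± 0.61 (adjusted p = 0.983), with a 95% interval from 2.67-fold lower to 2.57-fold higher. Fcer1g read 1284, 1986 and 629 against 422, 3063 and 1716, a wider span still. The Fc receptor gene Fcgr1 read 647, 931 and 523 against 332, 1298 and 656, and Fcgr3 read 986, 1346 and 568 against 373, 1612 and 1099. Both were low on cerebellar array 1 and high on cerebellar array 2, and neither differed by region beyond that spread (adjusted p = 0.958 and 0.956). Trem2, the lipid receptor that pairs with Tyrobp, read 139.9, 209.6 and 207 against 397, 249 and 158 on its tested probe set, with its highest value on cerebellar array 1. All but that value lay within the range of the bacterial controls. The second Trem2 probe set, below the filter, read 46.2, 53.5 and 35.9 against 34.6, 163 and 103, all within that range, so no order of the arrays can be read from it.

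The 3 chains of C1q, the complement component that tags synapses and debris, are encoded side by side on chromosome 4 and kept close step with each other. C1qa read 2935, 5549 and 1804 on neocortical arrays 1 to 3 and 1066, 6637 and 4102 on cerebellar arrays 1 to 3. C1qb read 1905, 3231 and 1326 against 695, 4339.7 and 2894, and C1qc read 1909.6, 3407 and 1279.8 against 752, 3981 and 2096. In each, cerebellar array 2 was highest, neocortical array 2 second, and cerebellar array 1 lowest, and from cerebellar array 1 to 2 the signal rose 6.22-fold, 6.24-fold and 5.29-fold. The regional differences were -0.01 ± 0.62, 0.03 ± 0.60 and -0.14 ± 0.55, with adjusted p of 0.997, 0.98 and 0.909. For C1qa the 95% interval ran from 2.66-fold lower to 2.64-fold higher, so a regional difference of that size would not have been separable from the spread. These values are of the brightest probe sets. From cerebellar array 1 to 2, a further C1qb probe set rose 1.59-fold and was highest on cerebellar array 3. Another rose 5.14-fold and was highest on neocortical array 2.

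**Figure D2:**
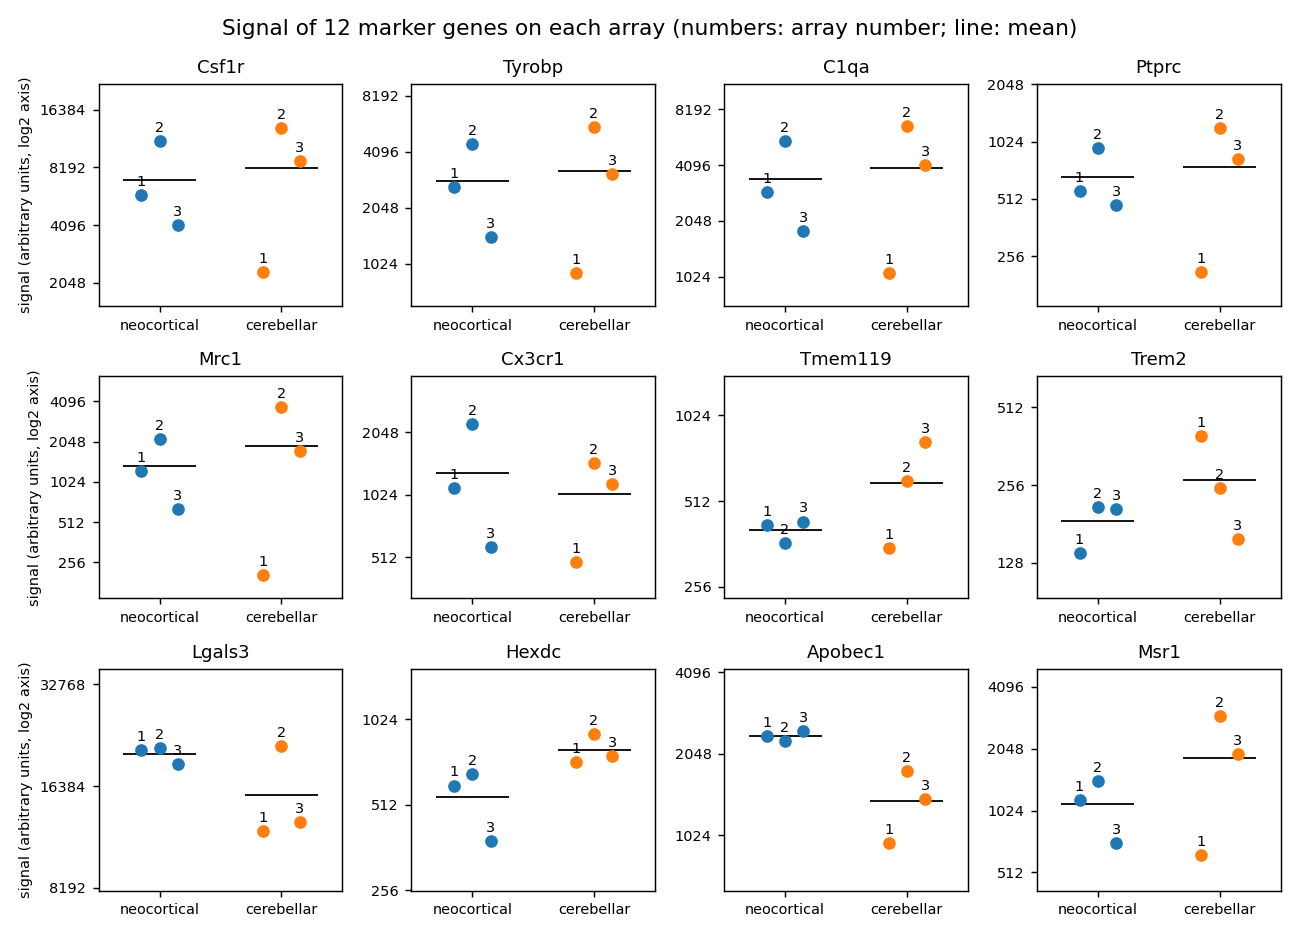
Signal of 12 marker genes on each array, on a log2 axis with a range of its own per panel; numbers give the array, and the line is the mean of 3 arrays. In Csf1r, Tyrobp, C1qa, Ptprc and Mrc1 the cerebellar arrays hold both the highest and the lowest value, while Apobec1 and Hexdc are the panels in which the groups do not overlap.

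Among lysosomal and enzyme genes, 5 of 7 showed both steps, and Hexdc and Apobec1 did not. Cd68, a lysosomal membrane glycoprotein of phagocytes, read 1867, 2313 and 1077 in neocortical and 422, 2709.6 and 1776 in cerebellar astrocytes, a 6.41-fold span. Ctss, the lysosomal protease cathepsin S, read 4598, 8905 and 2838 against 2938, 8031 and 6467, and here cerebellar array 1 and neocortical array 3 were nearly equal. The lysozyme genes Lyz1 and Lyz2 are neighbours on chromosome 10 and near-identical copies, so their probe sets may share transcripts and are not independent. Lyz1 read 16394, 15829 and 4942 against 3556, 26202 and 15691, and Lyz2 read 6852, 7121 and 2681 against 2429, 11958 and 7488. In both, neocortical array 3 was low along with cerebellar array 1. The Lyz1 probe set without a suffix was below the filter. It read 55.3, 25.1 and 108 against 22.3, 74.3 and 13.4, all within the range of the bacterial controls. How much of the bright Lyz1 signal comes from Lyz1 itself can therefore not be told. Hpgds, the hematopoietic prostaglandin D synthase gene, read 201, 380.5 and 209.6 against 109, 427 and 218 (difference -0.22 ± 0.51, adjusted p = 0.83).

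Apobec1, a cytidine deaminase that edits messenger RNA, was the marker that was called. It read 2374, 2275 and 2483 on neocortical arrays 1 to 3 and 957, 1765 and 1395 on cerebellar arrays 1 to 3. The neocortical values were tight and every cerebellar array lay below them. The means were 2377 ± 104 and 1372 ± 404 (SD, n = 3 each). The fitted log2 difference was -0.84 ± 0.21 (SE, limma adjusted p = 0.0362), a 1.79-fold lower cerebellar signal. The adjusted p ranged from 0.0119 to 0.159 over the 16 alternatives that tested the gene. The call was lost with no filter (0.159), with no variance trend (0.0898), and without neocortical array 1, 2 or 3 (0.111, 0.0995 and 0.127) or cerebellar array 3 (0.0734). With the array number as a block the adjusted p was 0.0254.

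Hexdc, a hexosaminidase gene, was the other marker whose groups did not overlap, at 599, 659 and 383 in neocortical and 724, 909 and 763 in cerebellar astrocytes. It was higher in cerebellar astrocytes by 0.58 ± 0.24 on the log2 scale and did not pass (adjusted p = 0.171). Groups that did not overlap were found for 34.3% of all genes tested, 16% with cerebellar signal higher and 18.3% with it lower, beside these 2 of 36 markers.

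Among pattern recognition, scavenger and surface genes, Mrc1 had the widest interval. Mrc1, the mannose receptor of border and perivascular macrophages, read 1232, 2142 and 645 in neocortical and 206, 3729 and 1738 in cerebellar astrocytes. Cerebellar array 1, whose value lay within the range of the bacterial controls, was far below cerebellar array 2, and the 95% interval of the regional difference reached from 4.5-fold lower to 3.83-fold higher. Msr1, the class A scavenger receptor, read 1148, 1430.3 and 711 against 624, 2956 and 1938 (difference 0.54 ± 0.51, adjusted p = 0.548). Cerebellar arrays 2 and 3 were above every neocortical array, and without cerebellar array 1 Msr1 was called higher in cerebellar astrocytes, with a log2 difference of 1.18 (adjusted p = 0.0418). Ly86, the MD-1 partner of a Toll-like receptor relative, read 1586, 3201 and 896 against 447, 2745 and 1913, and Mpeg1, the pore-forming perforin-2, read 2174, 2809.7 and 1280.2 against 690.2, 3139 and 2059.6. Both had the common order at the low end. Adgre1, the F4/80 receptor of mouse macrophages, read 610.3, 1177 and 698 against 404, 1154 and 1374 and was highest on cerebellar array 3. Cd14, the endotoxin co-receptor, read 3035, 3008 and 2232 against 1254, 4137 and 2402, with a flatter neocortical group than most markers.

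Lgals3, the lectin galectin-3, was bright and nearly level in neocortical astrocytes, at 20962, 21169 and 19055. The cerebellar arrays read 12033, 21455 and 12805, of which arrays 1 and 3 lay below the neocortical range and array 2 above it. Its difference was -0.45 ± 0.19 (adjusted p = 0.178), and without cerebellar array 2 it was -0.71 and passed (adjusted p = 0.0031). The direction of the whole group likewise hung on single arrays: the median log2 difference of the markers was 0.52 without cerebellar array 1, -0.55 without cerebellar array 2 and 0.26 without neocortical array 2.

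**Figure D3:**
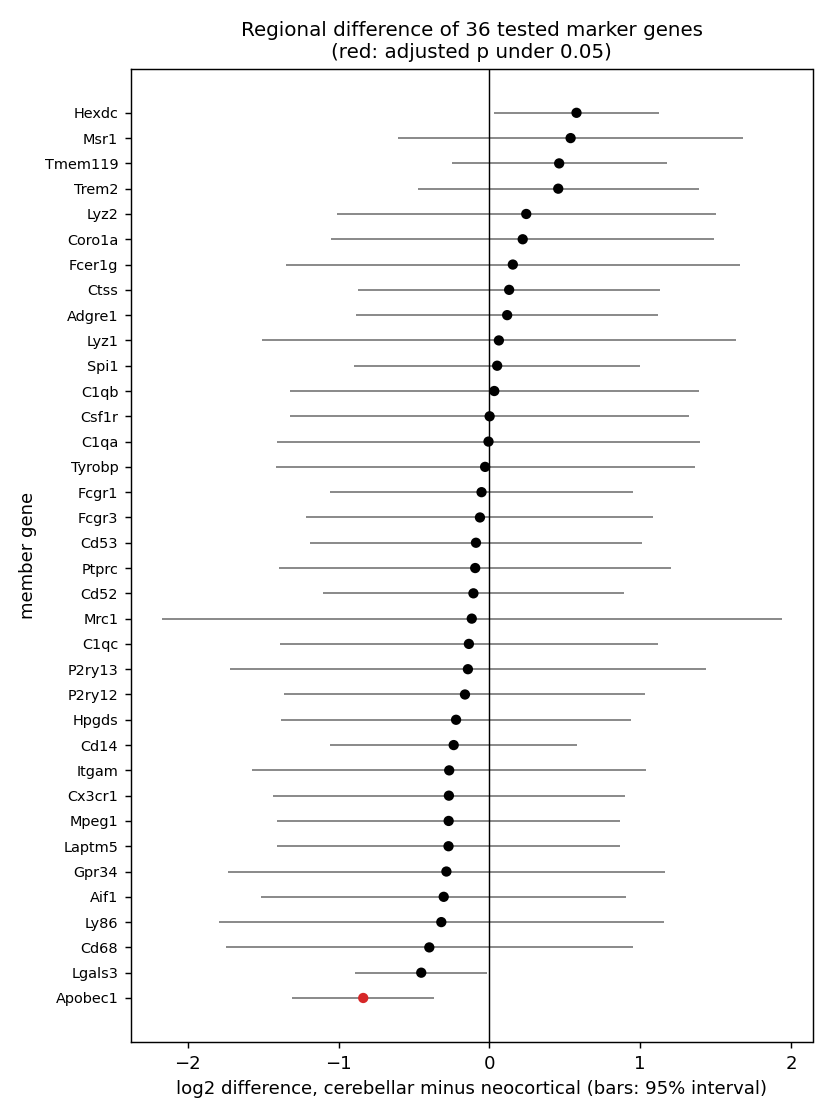
Log2 difference between regions (points, cerebellar minus neocortical) with its 95% interval (bars) for the 36 tested markers. All intervals include 0 except those of Apobec1 (red, called), Lgals3 and Hexdc, whose unadjusted p values were 0.0438 and 0.0414 and which did not pass after adjustment.

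Further probe sets of the same genes repeated the steps in part. There were 11 genes with more than 1 probe set, and 48 of all 57 probe sets passed the filter, 12 of them beside the brightest ones. Both steps were seen in 6 of these 12, and not in the other 6, which belong to Csf1r, Laptm5, Fcgr1 and C1qb. Of the 48, 1 was called. The median half-width of the 95% interval was 1.18 on the log2 scale over the 36 genes, a 2.27-fold difference, while the median SE was 0.52 for the markers and 0.16 over all genes tested.

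Arrays of the same number deviated together weakly over the probe sets that passed the filter (correlations 0.180, 0.188 and 0.101). The markers were compared within numbers as well. In the arrays numbered 1, 34 of 36 markers were lower in the cerebellar sample, with a median log2 difference of -1.25. In the arrays numbered 2, 26 were higher and 10 lower (median 0.23), and in those numbered 3, 33 were higher and 3 lower (median 0.94). The median regional difference was thus negative for number 1 and positive for numbers 2 and 3.

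Other genes of microglia and macrophages, listed by function, were read next. Of 53 such genes 50 were found, 44 were tested, 3 were higher and 2 lower in cerebellar astrocytes, and 39 did not pass. Both steps were seen in 24 of the 44. Called genes included Olfml3, a secreted glycoprotein, which was 3.24-fold higher (adjusted p = 0.00299), and the transcription factor gene Runx1, 2.09-fold higher (adjusted p = 0.044). The integrin gene Itgb5 was 1.9-fold and the transcription factor gene Sall1 1.7-fold lower (adjusted p = 0.000911 and 0.0207). None of these 4 showed both steps: their ratios of cerebellar array 2 to array 1 lay between 0.701 and 1.14. With no filter, no gene of this list was called higher and 1 was called lower. Of 15 perivascular and border macrophage genes, 10 were tested and none was called, and 7 showed both steps. Pf4, a platelet and macrophage chemokine, read 971, 1653 and 619 in neocortical and 371, 2042 and 1065 in cerebellar astrocytes, which is the order of C1qa. Colec12, a scavenger collectin, read 1458, 1613 and 1666 against 1797, 1689.7 and 2199.5 and did not follow it (adjusted p = 0.305).

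Genes through which other cells feed, attract or restrain microglia were read as a list of their own. Of 24 such genes, 19 were tested, and 5 were higher and 5 lower in cerebellar astrocytes, with none of the 19 showing both steps. Cx3cl1, the fractalkine ligand of Cx3cr1, read 1649, 1463 and 1689 against 4803, 4079.9 and 3193, with no overlap and 2.49-fold higher cerebellar signal (adjusted p = 0.0015). The chemokine gene Cxcl12 was 2.76-fold and the alarmin gene Il33 2.24-fold higher (adjusted p = 0.00714 and 0.0407). Cd200, which restrains myeloid cells through its receptor, read 7555, 7359 and 7238 against 3056, 3824 and 3178, 2.21-fold lower in cerebellar astrocytes (adjusted p = 0.000493). The counts of this list were 3 and 2 with no filter and 5 and 2 with no variance trend. Csf1, the ligand of Csf1r, was named after its value was seen. It read 12673, 9544 and 12690.5 against 14964, 11338 and 11551, with no call (adjusted p = 0.662).

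Of 9 tested complement genes outside C1q, Cr1l was higher in cerebellar astrocytes (1.36-fold, adjusted p = 0.0471), a call lost, among other settings, under median scaling, with no filter and with no variance trend, and none was lower. Both steps were seen in 3 of the 9. Serping1, the C1 inhibitor gene, read 11342, 13636 and 13439 against 7264, 13788 and 14603, and Cd59a, which blocks the membrane attack complex, read 8320.4, 7983 and 8031 against 5136, 7582 and 6234. Both were lowest on cerebellar array 1. Of 8 tested genes of antigen presentation none was called and none showed both steps. B2m, the light chain of class I molecules, read 36555, 33382 and 39372 against 46279, 37690.3 and 38919, and the class I gene H2-K1 22357, 19702 and 23083 against 18865, 18563 and 14865. Of 16 lymphocyte and granulocyte markers found, 1 passed the filter on dim signal, Cd8a, at 154, 209 and 202 against 296, 424 and 437, which was not called (adjusted p = 0.0644).

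Markers of other cells were read on the same arrays, because cerebellar array 1 was low for several of them too. All 18 astrocyte markers, read to check the labelled cell type, passed the filter, and 6 were lower and 1 was higher in cerebellar astrocytes. Ndrg2 was 2.86-fold, Acsbg1 2.3-fold, Glul, which encodes glutamine synthetase, 1.76-fold and Slc1a3, which encodes a glutamate transporter, 1.75-fold lower. Vim read the same 145520 on all arrays, as quantile normalization leaves a probe set that has the same rank on each, and adds a constant to any sum. Without it the summed signal of the astrocyte markers was 308698, 359905 and 343333 on neocortical and 227331, 308115 and 294997 on cerebellar arrays 1 to 3, lowest on cerebellar array 1. The sum of the phagocyte markers was 91069, 121783 and 58765 on neocortical and 38408, 147254 and 95278 on cerebellar arrays. Sums of this kind, here and below, are ruled by the brightest probe sets, among the phagocyte markers those of Lgals3 and Lyz1. They do not measure cell content, and sums of different lists are not set against each other. No astrocyte marker showed both steps, whose sizes were picked after the phagocyte values had been seen. The median astrocyte marker still read 1.49 times as high on cerebellar array 2 as on array 1. For neocortical array 2 over array 3 the median was 1.00. With no filter no astrocyte marker was called.

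Of 12 tested fibroblast and meningeal markers, 5 were lowest on cerebellar array 1 and 7 highest on cerebellar array 3, while Twist1 was highest on cerebellar array 1. Their mean levels were -0.57, 0.29 and 0.73 on cerebellar arrays 1 to 3 and -0.19, -0.39 and 0.14 on neocortical arrays. Of the 12, 2 were higher, Twist1 at 2.06-fold and Fn1 at 1.9-fold, and Thy1 was 1.67-fold lower, and with no filter none was called. None of the 12 showed both steps, and their summed signal ran from 90850 to 145504 on neocortical and from 121134 to 291978 on cerebellar arrays. Neither the 9 tested oligodendrocyte, 6 neuron nor 5 endothelial and pericyte markers held a gene with both steps. Among them Olig2 was 5.99-fold and Olig1 3.33-fold lower and Mbp 6.27-fold higher in cerebellar astrocytes, with 1 neocortical array of Mbp at the floor. With no filter Mbp and the neuron markers were not called. Syt1 was 1.59-fold and Kdr 2.96-fold lower. Gad1 was called lower too, with all its cerebellar values, 162, 152 and 158, within the range of the bacterial controls against 337, 1046 and 493 on neocortical arrays, while Pdgfrb and Cdh5 did not pass (adjusted p = 0.254 and 0.993).

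The genes whose signal was most like the mean marker level over the 6 arrays were chosen by their correlation with it, from 2184 genes with an SD of at least 0.5 on the log2 scale. The first 12 had r from 0.976 to 0.994, which is how they were chosen and is not a test. Of these, Pf4, Ms4a6c, Itgb2, Rac2, Ncf4, Slc15a3 and Lcp1 are genes known from myeloid or other blood cells. Itgb2, the partner chain of Itgam, read 602, 1022 and 478 against 243, 1169 and 963, and Ncf4, a subunit of the phagocyte oxidase, 462, 604 and 381 against 212, 822 and 569.7. Dnah11 and Lrrc23 belong to motile cilia. Dnah11, an axonemal dynein, read 704, 1133 and 473 against 293, 1368 and 765, and Efcab1 and Fam216b had a like order, as did Ctla2b.

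Because ciliary genes appeared there, a list of 26 motile cilia and ependymal genes was added after these values were seen. All 25 found were tested, 8 showed both steps and 1, Dnaic1, was called (2.2-fold lower in cerebellar astrocytes, adjusted p = 0.0388). Their level was -0.13, 0.62 and -0.16 on neocortical and -0.75, 0.36 and 0.06 on cerebellar arrays 1 to 3. Their summed signal ran from 70452 to 112268 on neocortical and from 49420 to 101420 on cerebellar arrays. Foxj1, the master factor of motile cilia, read 9022, 8931 and 7979 against 5665, 9939.6 and 6882, lowest on cerebellar array 1, and Dynlrb2, a dynein light chain, 14865, 24814 and 13591 against 9204, 21367 and 15904. The part of ciliated cells, of fibroblasts and of the other cell types above in the marker pattern was not tested.

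**Figure D4:**
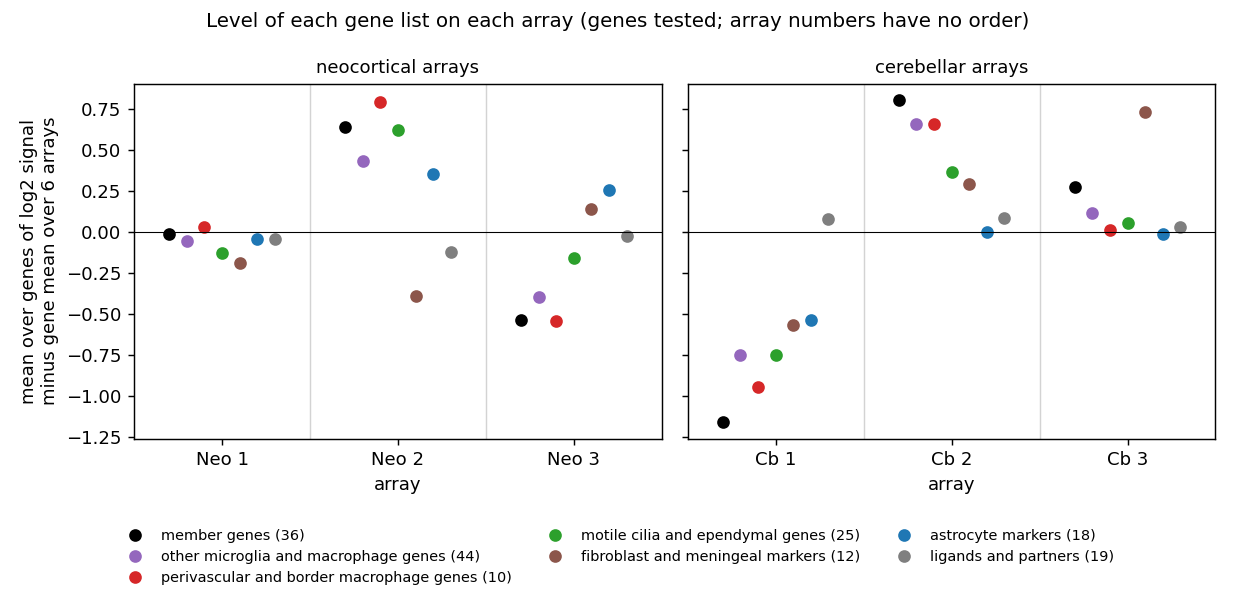
Level of 7 gene lists on each array, as the mean over tested genes (number in brackets) of log2 signal minus the gene's mean over the 6 arrays; points are offset sideways for sight only. Phagocyte lists (black, purple, red) are high on both arrays numbered 2 and low on cerebellar array 1 and neocortical array 3. Ciliary genes (green) are likewise high on the arrays numbered 2 and lowest on cerebellar array 1. The mean of the ligands and partners (grey) stays near 0, while 5 of these 19 genes were called higher and 5 lower in cerebellar astrocytes.

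As facts of the arrays, the 3′ to 5′ ratio of the Gapdh control was 0.913, 1.0 and 1.07 on cerebellar arrays 1 to 3 and 0.872, 0.865 and 0.883 on neocortical arrays, with no overlap. The same ratio of the actin control was 1.48, 1.42 and 1.62 on cerebellar and 1.4, 1.35 and 1.44 on neocortical arrays, lowest in both regions on array 2, where the marker level was highest. The Gapdh ratio was lowest on array 2 of the neocortical arrays too. Among cerebellar arrays it was lowest on array 1, where the marker level was lowest. The part of RNA quality in the marker pattern was not tested. Deposited medians ran from 284.7 to 361.2. Spearman correlations over all probe sets were 0.942 to 0.945 between neocortical, 0.932 to 0.938 between cerebellar, and 0.922 to 0.933 across regions.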

How the data were processed

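Single-colour oligonucleotide arrays of total RNA were analysed, 3 of neocortical and 3 of cerebellar astrocytes. The deposited values are linear intensities per probe set; the authors' scaling left the same mean of 1500 on each array after trimming 2% at each end, and the summarisation method is not given in the sources used here. Of 45101 probe sets, 64 controls were left out. The intensities were quantile normalized, raised to a floor at the 20th percentile (62.16) and taken to log2, and a limma 3.58.1 model (under R 4.3.3, with moderated variances that follow a trend with signal) was fitted to the 27022 probe sets whose mean reached the 40th percentile, with a Benjamini-Hochberg threshold of 0.05. The script was tested on simulated data. The number of arrays limits the precision.

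Of the 45037 probe sets, 34945 have 1 gene symbol, 932 several and 9160 none, and 34741 symbols were updated by gene ID through the GRCm38.p6 RefSeq table. A gene was read from its brightest probe set. The members and lists were chosen with earlier results of these data known. Named genes were all markers, up to 4 called genes per list with the largest difference (the 2 brightest where fewer than 2 were called), and the 12 genes most correlated with the marker level.

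Arrays of the same number, numbers being taken from the labels, deviated together (correlations 0.180, 0.188 and 0.101; -0.182 to 0.0225 for differing numbers), so numbers were treated as pairs in an alternative with a block. Alternatives also changed the scaling, floor, filter, variance trend, choice of probe set and arrays included.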

Additional observations from a re-analysis of the deposited data

How the results depend on the processing

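Over 17 alternatives, 579 of 587 results for single markers stayed on the same side of the threshold, 6 lost a call (all Apobec1) and 2 gained one (Msr1 without cerebellar array 1, Lgals3 without cerebellar array 2). As 35 of the 36 markers were uncalled in the main fit, the 579 are mostly markers that stayed uncalled and say little about robustness. Apobec1 kept its call in 10 of the 16 alternatives that tested it. No called difference changed sign, and 80 of the 579, all uncalled, did. The count of markers called lower was 0 with probe sets lacking a suffix (28 markers tested), with no filter and with no variance trend. Over all probe sets, 1319 were higher and 1545 lower in cerebellar astrocytes. Median scaling gave 819 higher and 2105 lower, and moved the median log2 difference of all probe sets from 0.01 to -0.10 and that of the markers to -0.20. With no filter the counts were 577 and 704, and with no variance trend 676 and 914. Leaving out 1 array at a time gave 0 to 1 markers higher, 0 to 2 lower, 547 to 1230 probe sets higher and 654 to 1554 lower, and a median marker difference from -0.55 to 0.52. With the replicate number as a block, Apobec1 alone was called (adjusted p = 0.0254 in limma), all probe sets gave 1557 higher and 1785 lower, and no call of a marker changed. Of 374 list counts, 304 stayed within 1.5 times and 70 moved. The cause of these changes was not tested. With 3 arrays a group, a marker's median interval half-width of 1.18 on the log2 scale limits what could be seen.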
